A study of Homo sapiens and Mus musculus with 7 samples.

Results

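How the response of each gene to hemin differed between KAP1 knockdown and control cells was described in HEL cells, a line from a human erythroleukaemia. The comparison rests on 4 of the 7 samples of the series, which are the HEL RNA-seq libraries; the other samples are chromatin libraries of sorted mouse bone marrow cells and enter nothing here. The groups were control cells (KAP1 WT in the labels) left untreated, control cells with hemin, knockdown cells (KAP1 KD) left untreated and knockdown cells with hemin. Hemin was used at 50 µM for 5 days, and all cells were kept in RPMI medium. The method of the knockdown, its number of clones and any construct in the control cells are not stated in the labels. Control columns are headed Ctrl and were taken as the KAP1 WT samples, because no other genotype remained. Each group was 1 library, from 250 ng of total RNA, and for that reason no difference below has a replicate check and none carries a p-value. For each gene the hemin response is the log2 ratio of hemin over untreated, and the difference is the response in the knockdown minus the response in the control.

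KAP1, encoded by TRIM28, is a corepressor that KRAB zinc finger proteins bring to their target sites, where it recruits enzymes that make heterochromatin. Hemin is a form of haem that makes erythroleukaemia cells accumulate globin. Haem also relieves repression by BACH1 of genes driven by NRF2, such as HMOX1, and is known to raise heat shock proteins. HEL cells express genes of both red cells and megakaryocytes, the platelet-forming lineage that shares a progenitor with red cells.

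Levels are given as scaled TPM, which are reads divided by transcript length and scaled so that a library sums to about 1000000 on average. Of 14923 genes, 11163 reached a floor of 5 scaled TPM in the highest of the 4 libraries, and 61 of these, structural RNAs and clustered histone genes whose RNAs mostly lack a poly-A tail, were set apart. Read totals ran from 24019698 in the untreated knockdown to 42095275 in the knockdown with hemin. Genes of both lineages were present: the gamma globin gene HBG2 was between 6984 and 32679 scaled TPM and the platelet integrin gene ITGA2B between 874 and 1990. The anion exchanger gene SLC4A1 of mature red cells (0.413 to 2.03) and VWF of mature megakaryocytes (0.215 to 1.07) stayed below 5. No deposited value was 0, so a gene without reads in 1 library may be missing. TRIM28 itself was at 421 scaled TPM without and 400 with hemin in the control, and at 317 and 190 in the knockdown. The log2 ratio of knockdown over control was thus -0.41 untreated and -1.07 with hemin, so the pair of treated libraries stood further apart in TRIM28 than the untreated pair. TRIM28 is among 5 rows deposited as whole numbers, whose unit and reads are not known, so it has no counting interval. These rows were scaled like the others, and the TRIM28 levels and ratios hold only if its values are on the same scale.

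Of the 11102 genes outside the lists set apart, 357 (3.22%) had a hemin response at least 2-fold higher in the knockdown than in the control, and 314 (2.83%) one at least 2-fold lower. The median difference over these genes was 0.01 and the median response was -0.01 in the control and 0.00 in the knockdown. The counting interval (exact, 95%, of the ratio of ratios of reads) excluded equal responses for 353 of the 357 and 312 of the 314, but such an interval holds counting error only and says nothing of the spread between cultures. Fewer cells of a type and less RNA per cell cannot be told apart in such bulk RNA.

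Most of these genes had responses of opposite sign, but few were 1.5-fold in each direction. They were picked for a 2-fold difference while median responses were near 0, so differing signs were likely from the selection alone. The sign of the response differed between knockdown and control for 277 of the 357 and 224 of the 314, and 36 and 25 of them were at least 1.5-fold in each direction. A hemin response can differ because the treated libraries differ or because the untreated ones do. Among the 357, knockdown and control were 2-fold apart with hemin but not without it in 72, without hemin but not with it in 131, in both states in 28 and in neither in 126. For the 314 these counts were 79, 89, 17 and 129. All 4 levels are therefore given below for the genes on which a result turns, in the order control untreated, control with hemin, knockdown untreated and knockdown with hemin.

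**Figure D1:**
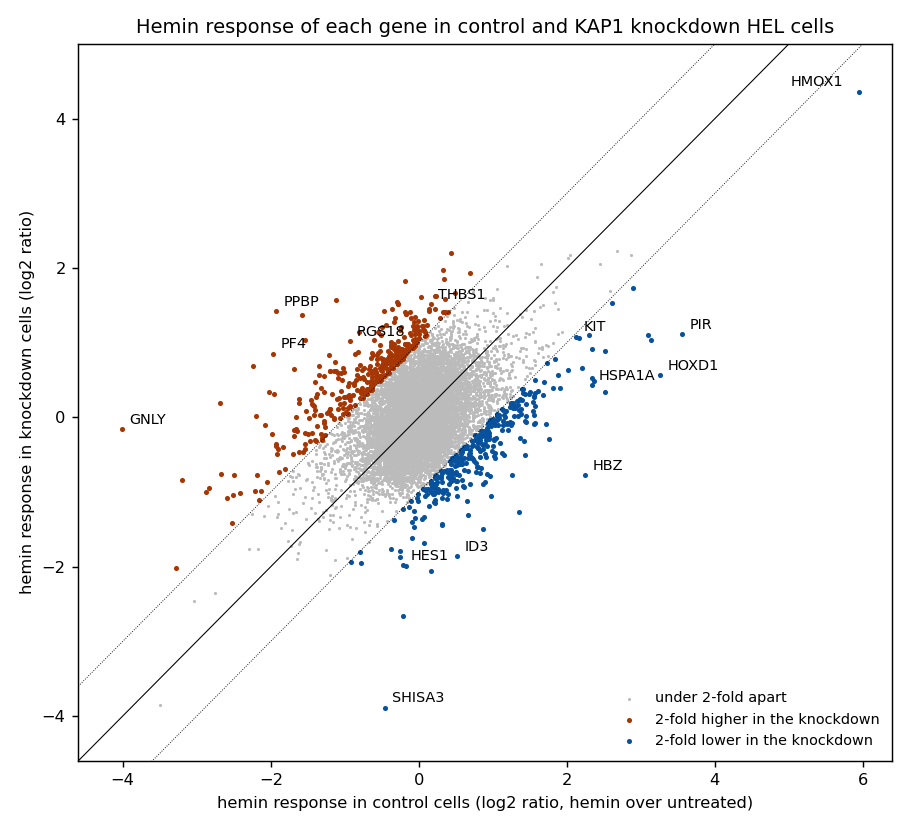
Hemin response of each of 11102 genes in control cells (horizontal axis) and in KAP1 knockdown cells (vertical axis), both as the log2 ratio of hemin over untreated, 1 point per gene and 1 library per group. Dotted lines mark a 2-fold difference between the responses; 357 genes lie above the upper line and 314 below the lower, with PPBP and PF4 at the upper left and HBZ, PIR and HMOX1 at the right.

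The share of genes past 2-fold went with level: it was 12.7% among 2072 genes with a mean below 10 scaled TPM, 4.95% among 5497 genes from 10 to 50, and 3.82% among 3533 genes at 50 or more. It also went with transcript length. In 5 bins of genes of about equal size, from the shortest to the longest, the median difference was -0.10, -0.07, -0.02, 0.07 and 0.14, and the shortest bin held 84 genes 2-fold higher and 124 lower against 78 and 20 in the longest. List medians with this trend removed are given beside the platelet, NRF2, proteasome, mitochondrial ribosomal and zinc finger results.

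Responses that one genotype had and the other lacked fell into 4 classes. In 89 genes the control was at least 2-fold higher with hemin, the knockdown was less than 1.5-fold higher, and the responses were 2-fold apart; the median response was 1.34 in the control and 0.04 in the knockdown. In 94 genes the control was at least 2-fold lower with hemin and the knockdown less than 1.5-fold lower, with medians of -1.38 and 0.11. Responses seen in the knockdown and not in the control were fewer: 74 genes were higher with hemin there (median responses: control -0.05, knockdown 1.24) and 45 lower (0.08 and -1.25). These classes were cut from the difference itself and are a description of it. Which genotype had more responses depended on the limit. At 2-fold, 282 genes were higher and 296 lower with hemin in the control, and 239 and 189 in the knockdown. At 1.5-fold these counts were 1016 and 928 in the control, and 1339 and 1195 in the knockdown.

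Globin genes come first, since hemin is used to raise them. HBZ, the embryonic zeta globin gene of the alpha cluster, was at 6.17 scaled TPM without and 31.2 with hemin in the control, and at 4.92 and 2.67 in the knockdown. The untreated cultures were thus close, and the treated ones stood 10.0-fold apart with 0.5 added to each level, the pseudocount used in every fold and log2 value here. Its hemin response was 2.25 in the control and -0.77 in the knockdown, a difference of -3.02 (counting interval -4.07 to -2.36). It stood alone among the 4 alpha-like globin genes at this floor: HBA1 and HBA2, near-identical copies that may share reads, differed by -0.14 and -0.11 and the theta gene HBQ1 by -0.35. HBA1 went from 1069 to 3767 scaled TPM in the control and from 2663 to 8530 in the knockdown.

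In the beta cluster 1 of 5 genes had a 2-fold higher and 1 a 2-fold lower response. HBB, the adult beta globin gene, was at 52.7 scaled TPM without and 25.7 with hemin in the control, and at 21.1 and 33.7 in the knockdown, a difference of 1.68 (1.37 to 2.06). HBE1, the embryonic epsilon globin gene, was at 273 and 2027 in the control and 452 and 1498 in the knockdown; it was higher with hemin in both, by 7.41-fold and 3.31-fold, and the responses differed by -1.16 (-1.23 to -1.10). Of the embryonic globin genes, HBE1 thus had a smaller response of the same sign in the knockdown, while that of HBZ changed sign. HBB changed sign as well, but in the other direction: lower with hemin in the control and higher in the knockdown. The fetal gamma genes HBG1 and HBG2, the most abundant globins here and near-identical to each other, differed by 0.12 and 0.14.

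**Figure D2:**
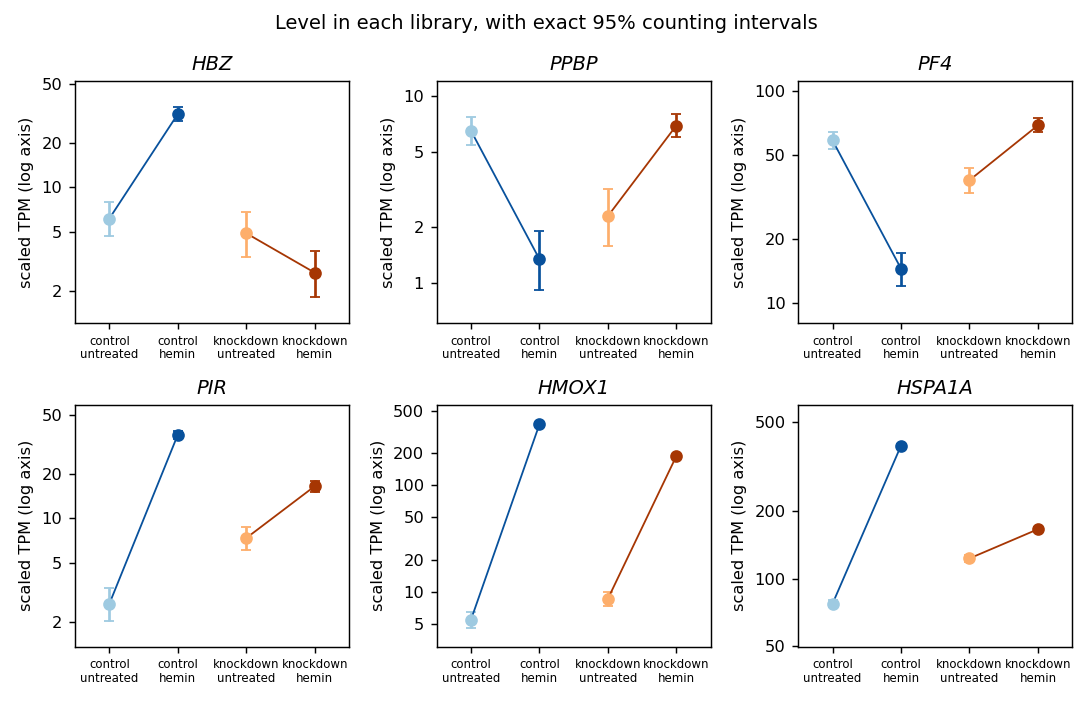
Level of 6 genes in each library, as scaled TPM on a log axis, with exact 95% Poisson intervals of the reads as bars; lines join the untreated to the hemin library of the control (blue) and of the knockdown (red-brown). HBZ (31.2 against 2.67 with hemin) parts in the treated libraries, PPBP and PF4 cross over, and PIR, HMOX1 and HSPA1A are higher with hemin in both genotypes but by less in the knockdown.

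The median gene of the platelet and megakaryocyte list was lower with hemin in the control and not in the knockdown. For the 33 list members at the floor the median control response was -0.46, that of the knockdown 0.08, and the median difference was 0.76 (0.79 with the length trend removed) against 0.01 over all genes. In 10 of the 33 the difference was at least 2-fold higher (3.22% of all genes) and in 1 at least 2-fold lower (2.83%); at 1.5-fold the counts were 19 and 2, where 13.0% of all genes were higher and 12.1% lower. In the control 15 members were at least 1.5-fold lower with hemin (8.36% of all genes) and 2 higher (9.15%); in the knockdown 3 were lower (10.8%) and 7 higher (12.1%). The median of knockdown over control was 0.12 untreated and 0.91 with hemin, so the treated libraries carried most of the list's difference. Its summed level was 6091 and 4275 scaled TPM in the control and 6017 and 5744 in the knockdown.

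The granule chemokines led the list. PPBP, which encodes pro-platelet basic protein (CXCL7), was at 6.52 scaled TPM without and 1.34 with hemin in the control, and at 2.28 and 6.95 in the knockdown. Its difference was 3.35, or 3.89 without the pseudocount (3.08 to 4.70), from 32 to 191 reads per library. PF4, platelet factor 4 (CXCL4), was at 58.4 and 14.5 in the control and 37.9 and 68.8 in the knockdown, a difference of 2.82 (2.49 to 3.24). Both were highest in the untreated control and the treated knockdown. PF4V1, a close copy of PF4 that may share its reads, was at 8.88, 1.93, 6.21 and 7.83 in the same order, a difference of 2.27. These 3 genes sit in the CXC chemokine cluster of 4q13. There 4 of 5 genes at the floor, of 9 listed, were at least 2-fold higher (3.22% of all genes), and all differed in the same direction. These 3 make up most of that count, and PPBP and PF4 were among the genes always named. The others were CXCL3, a neutrophil attractant (14.6 and 10.1 scaled TPM in the control, 13.5 and 29.7 in the knockdown, difference 1.62), and CXCL2 with 0.80.

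The promoter of PPBP is shown because this gene had the highest difference of the list; the table of promoters held entries for 25 of the 33 members. The 250 bases before its start, on the minus strand at chr4:73988191-73988440 (RefSeq, GRCh38.p14, whereas the submitters' processing notes name hg19 and the expression table has no coordinates), hold 1 match to AGATAA, a sequence bound by GATA factors, in capitals:
PPBP: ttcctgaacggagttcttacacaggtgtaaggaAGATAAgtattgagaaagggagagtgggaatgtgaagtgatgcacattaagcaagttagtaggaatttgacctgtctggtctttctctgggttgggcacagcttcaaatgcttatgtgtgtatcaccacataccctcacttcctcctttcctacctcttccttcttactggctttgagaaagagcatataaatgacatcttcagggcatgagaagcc
Both strands were searched, and matches to different motifs may overlap. AGATAA was found in such windows of 4 of the 25 platelet genes (16.0%) and of 11.1% of 27305 genes. CAGGAAG, bound by ETS factors such as FLI1, was found in 8 of the 25 (32.0%) and in 12.6% of all. A match describes the letters and is not evidence of binding.

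Adhesion receptors and signalling genes of platelets followed. RGS18, a regulator of G protein signalling in platelets, was at 142 and 74.4 scaled TPM in the control and 68.9 and 140 in the knockdown, so hemin and untreated levels were nearly exchanged; its difference was 1.95 (1.86 to 2.06) on 1745 to 6363 reads. MMRN1, a granule protein that binds factor V, had the same pattern (71.9, 32.4, 40.2 and 67.4; 1.88). In the collagen and von Willebrand factor receptor genes GP6 (1.43) and GP1BA (1.37) the control was lower with hemin and the knockdown moved by less: GP1BA was at 120 and 47.6 in the control and 141 and 145 in the knockdown. TIMP3, an inhibitor of metalloproteinases, was highest in the untreated control (489, 151, 241 and 203; 1.45), and ITGA2, a chain of a collagen receptor, in the knockdown with hemin (10.8, 6.85, 13.8 and 19.5; 1.11). THBS1, thrombospondin, behaved otherwise, with 4.28 and 4.83 in the control and 72.6 and 209 in the knockdown; here the response was 0.16 and 1.52 from untreated levels far apart. CLEC1B, the podoplanin receptor gene, was the member with a 2-fold lower difference (-1.29), at 0.383 and 1.57 in the control and 5.38 and 5.14 in the knockdown.

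**Figure D3:**
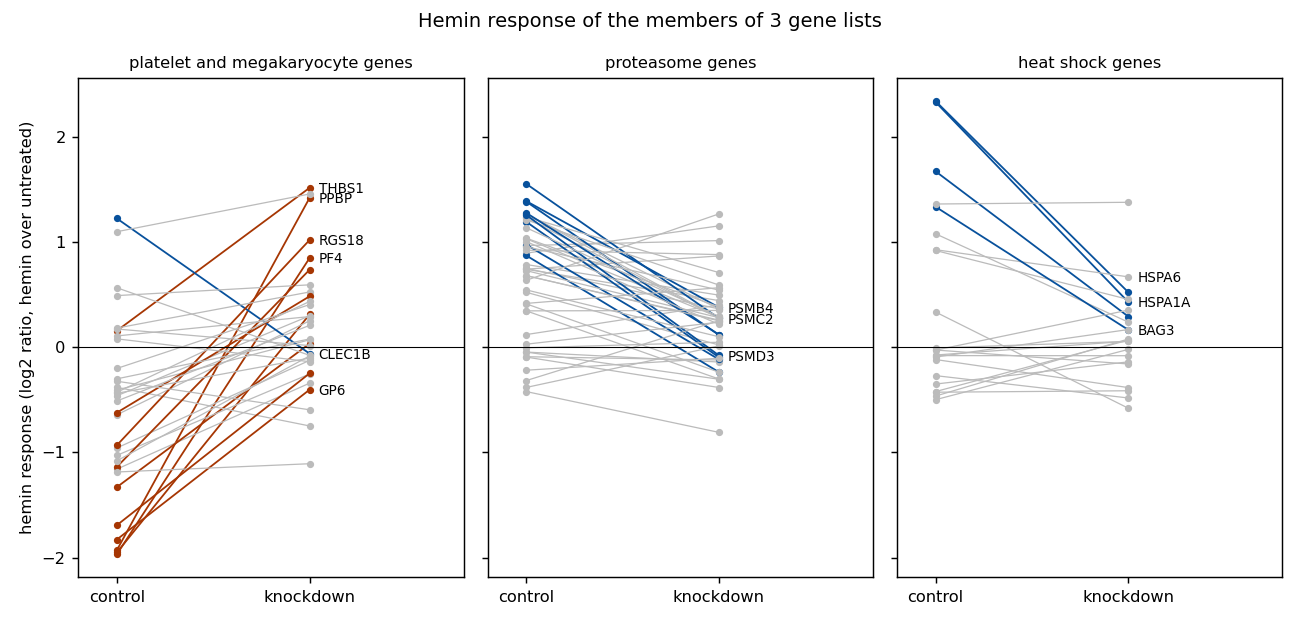
Hemin response (log2 ratio of hemin over untreated) of the members of 3 gene lists at the floor, each line joining a gene's response in the control to its response in the knockdown, 1 library per group. Red lines have a 2-fold higher and blue lines a 2-fold lower response in the knockdown: 10 and 1 of 33 platelet genes, 0 and 8 of 46 proteasome genes, 0 and 4 of 22 heat shock genes.

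Transcription factors of both lineages were mostly under 2-fold. Of 11 megakaryocyte factors, ETS1 was just past 2-fold (1.00), at 430 and 173 scaled TPM in the control and 565 and 458 in the knockdown, and it was under 2-fold in 3 of 11 alternatives; the list's median difference was -0.01. Among 16 erythroid factors none was past 2-fold and the median was -0.19, with ZBTB7A, a repressor of fetal globin, at -0.87 and KLF1, the red cell activator of HBB, at -0.76 (107 and 179 in the control, 113 and 111 in the knockdown). GATA1, which serves both lineages, differed by -0.47.

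Markers of other blood cells were in these libraries too, and several differed between the genotypes before hemin. The 13 mast cell and eosinophil genes at the floor, of 19 listed, summed to 4801 and 4522 scaled TPM in the control and 1947 and 2547 in the knockdown, with a median difference of 0.48 (0.14 with a pseudocount of 2). PRG2, an eosinophil granule protein gene, was at 1345 and 647 in the control and 6.82 and 10.6 in the knockdown (difference 1.65), and CPA3, mast cell carboxypeptidase, at 118 and 82.2 against 12.7 and 23.8 (1.41). KIT, the stem cell factor receptor gene, was at 32.8 and 145 in the control and 13.7 and 29.6 in the knockdown (-1.05). The 10 monocyte and neutrophil genes at the floor, of 21 listed, summed to 830 and 651 in the control and 359 and 328 in the knockdown. Their median difference was -0.23, with 5 above 0 and 5 below. At 2-fold 1 was higher (3.22% of all genes) and 0 lower (2.83%). The higher one was FCGR2A, an Fc receptor gene also present on platelets (1.45). The 6 lymphoid genes at the floor, of 14 listed, summed to 151 and 112 in the control and 172 and 156 in the knockdown. The table held 14 of 19, 14 of 21 and 8 of 14 listed markers, none of them at 0. The eosinophil peroxidase gene EPX (0.156 to 0.298), the monocyte gene CD14 (0.111 to 0.366) and the lymphocyte gene CD5 (0.0536 to 0.138) were the lowest of their lists. The part of such cells or of these genes in the platelet result was not tested.

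Genes of the antioxidant response had a positive median response in both genotypes, and HMOX1 and PIR had the smaller response in the knockdown. PIR, which encodes pirin, an iron-binding nuclear protein, was at 2.64 scaled TPM without and 36.6 with hemin in the control, and at 7.34 and 16.4 in the knockdown. It was thus higher untreated and lower treated than its control, with a difference of -2.45, or -2.63 without the pseudocount (-3.11 to -2.16). HMOX1, haem oxygenase 1, went from 5.50 to 371 in the control (61.9-fold) and from 8.64 to 187 in the knockdown (20.5-fold), a difference of -1.59 (-1.98 to -1.30). In each genotype no other gene outside the structural RNAs and histone genes had as high a response.

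For the 34 NRF2 target genes at the floor the median control response was 0.42 and that of the knockdown 0.32, with a median difference of -0.23 (-0.21 with the length trend removed). Beside PIR and HMOX1 none was past 2-fold, and at 1.5-fold 2 were higher and 10 lower (13.0% and 12.1% of all genes). In the control 16 were at least 1.5-fold higher with hemin (9.15% of all genes), in the knockdown 12 (12.1%). The ferritin genes, which store iron, differed little: FTL went from 2594 to 7716 in the control and from 2314 to 5280 in the knockdown (-0.38), and FTH1 differed by 0.12. GCLM, which encodes a subunit of the glutathione synthesis enzyme, was higher with hemin by 1.03 and 1.36. The smaller response of PIR and HMOX1 was therefore not shared by every gene of the list.

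More proteasome genes responded to hemin in the control than in the knockdown. Of 46 genes, which encode the catalytic core, its regulatory caps and their assembly factors, 29 stood at least 1.5-fold higher with hemin in control cells (9.15% of all genes), against 7 in knockdown cells, a share near the 12.1% of all genes. The median response was 0.75 and 0.27, and the median difference -0.43. With the length trend removed it was -0.36; these transcripts are short, with a median of 1411 bases against 2690 over all genes. At 2-fold 8 of the 46 had a lower (2.83% of all genes) and 0 a higher difference (3.22%), and at 1.5-fold 18 and 1 (12.1% and 13.0%). Their summed level was 6948 scaled TPM without and 11856 with hemin in the control, and 8722 and 9943 in the knockdown. The knockdown was higher than the control untreated (median 0.25) and lower with hemin (-0.24), so both states took part.

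The 8 genes past 2-fold encode 6 subunits of the regulatory cap and 2 of the core. PSMD3, a lid subunit of the cap, was at 205 and 492 scaled TPM in the control and 350 and 332 in the knockdown, a difference of -1.34 (-1.39 to -1.28). The ATPase genes PSMC4 (168, 385, 248 and 232; -1.29) and PSMC2 (51.8, 153, 77.0 and 93.4; -1.28) and the core gene PSMB7 (160, 420, 247 and 268; -1.27) had the same order of levels, lowest in the untreated control and highest in the treated control. PSMD2 (-1.16), PSMC5 (-1.11), PSMC3 (-1.09) and PSMB4 (-1.01) completed the set. Not every subunit followed: PSMB1, of the core, was at 276 and 514 in the control and 195 and 436 in the knockdown (0.26). The inducible immune subunits PSMB8 (-0.09) and PSMB9 (-0.29) and the activator genes PSME1 (0.57) and PSME2 (0.40) were not higher with hemin in the control.

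PSMD3 had the most negative difference of this list, and the 250 bases before its start are shown (plus strand, chr17:39980557-39980806, RefSeq, GRCh38.p14). Capitals mark a match to TGACNNNGC, a short form of the antioxidant response element bound by NRF2 with small MAF proteins:
PSMD3: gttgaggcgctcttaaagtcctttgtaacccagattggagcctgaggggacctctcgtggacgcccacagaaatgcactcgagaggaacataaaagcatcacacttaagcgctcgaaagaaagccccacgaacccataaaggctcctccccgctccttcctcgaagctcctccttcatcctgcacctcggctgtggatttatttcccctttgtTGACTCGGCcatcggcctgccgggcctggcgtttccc
The window of 13 of 40 proteasome genes with an entry held a match on either strand (32.5%), against 13.2% of 27305 genes. It was present in 2 of the 7 with an entry among the 8 past 2-fold (28.6%) and in 9 of 25 NRF2 targets (36.0%).

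Heat shock genes divided. Of 22 at the floor, 8 stood at least 1.5-fold higher with hemin in control cells (9.15% of all genes) and 2 in knockdown cells (12.1%, so no more than all genes), while the median response was -0.03 and 0.07 and the median difference -0.07. Past 2-fold, 4 had a lower difference (2.83% of all genes) and 0 a higher (3.22%). HSPA1A, an inducible HSP70 chaperone gene, was at 77.4 and 393 scaled TPM in the control and 123 and 166 in the knockdown, a difference of -1.90 (-1.99 to -1.83). Its near-identical copy HSPA1B, with which it may share reads, was at 96.1, 490, 145 and 209 (-1.82), and the related gene HSPA1L at 1.52, 5.96, 2.07 and 2.65 (-1.38, and -0.98 with a pseudocount of 2). BAG3, an HSP70 co-chaperone, was at 8.68, 22.7, 18.2 and 20.5 (-1.17). In each of the 4 the treated control was highest and the untreated control lowest. DNAJB4, a partner of HSP70 as well, was higher with hemin in both genotypes (1.36 and 1.38), and HSPA6, low in the knockdown throughout, differed by -0.26. The constitutive chaperones HSPA8 and HSP90AA1 differed by 0.49 and 0.54.

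The 250 bases before the starts of HSPA1A (plus strand, chr6:31815293-31815542) and HSPA1B (plus strand, chr6:31827488-31827737) are given to show how alike the pair is and where a match to the heat shock element lies (RefSeq, GRCh38.p14). Other forms of the element were not searched. Capitals mark GAANNTTC, the core of the element bound by heat shock factors:
HSPA1A: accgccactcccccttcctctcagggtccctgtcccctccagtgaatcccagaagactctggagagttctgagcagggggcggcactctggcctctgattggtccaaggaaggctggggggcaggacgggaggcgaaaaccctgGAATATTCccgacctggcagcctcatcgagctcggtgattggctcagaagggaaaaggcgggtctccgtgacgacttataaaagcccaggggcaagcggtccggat
HSPA1B: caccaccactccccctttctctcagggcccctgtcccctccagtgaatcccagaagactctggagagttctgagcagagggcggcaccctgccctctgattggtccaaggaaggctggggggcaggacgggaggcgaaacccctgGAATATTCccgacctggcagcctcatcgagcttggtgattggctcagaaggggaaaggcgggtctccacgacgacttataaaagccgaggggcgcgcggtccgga
A match was found in the window of 13 of 20 heat shock genes with an entry (65.0%) and of 7.05% of all 27305 genes.

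Cell division genes had a negative median response in the control and one nearer to 0 in the knockdown. Of 40 DNA replication genes, 19 stood at least 1.5-fold lower with hemin in control cells (8.36% of all genes) and 8 in knockdown cells (10.8%), with 0 higher in either. The median response was -0.57 and -0.23 and the median difference 0.36. At 2-fold 2 had a higher difference (3.22% of all genes) and 1 a lower (2.83%), and at 1.5-fold 8 and 2 (13.0% and 12.1%). Higher at 2-fold was CCNE2, an E-type cyclin, at 12.0 and 6.95 scaled TPM in the control and 15.4 and 22.7 in the knockdown (1.29). So was RRM2, a subunit of ribonucleotide reductase, at 94.4, 46.2, 119 and 123 (1.06). CCNE1, the paralogous cyclin, differed the other way (5.70, 8.02, 9.87 and 5.42; -1.27).

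Of 39 mitosis genes, 7 stood at least 1.5-fold lower with hemin in control cells (8.36% of all genes) and 2 in knockdown cells (10.8%). The median difference was 0.39. At 2-fold 2 had a higher difference (3.22% of all genes) and 0 a lower (2.83%), and at 1.5-fold 11 and 1 (13.0% and 12.1%). CDK1, the kinase that starts mitosis, was at 57.6 and 40.1 in the control and 41.7 and 81.8 in the knockdown (1.48), and ECT2, needed for cytokinesis, at 16.1, 11.3, 13.4 and 22.1 (1.20). Both lists were already higher in the untreated knockdown than in its control, with medians of 0.90 and 0.92, and more so with hemin (1.21 and 1.30). Among 20 genes of G1 cyclins, their inhibitors and E2F factors, 1 was 2-fold higher (3.22% of all genes) and 0 lower (2.83%). E2F8, a repressor E2F, was that gene (1.04), and it was under 2-fold with summed transcripts or a pseudocount of 2.

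In cholesterol synthesis 4 of 24 genes had a 2-fold higher difference (3.22% of all genes) and 0 a lower one (2.83%). MSMO1, a sterol demethylation enzyme, was at 56.8 and 62.7 scaled TPM in the control and 31.5 and 86.9 in the knockdown (1.30). HMGCS1, which feeds the pathway, was at 66.3, 71.3, 80.1 and 190 (1.13), SC5DL at 40.7, 32.7, 28.2 and 50.2 (1.13, and 0.97 with the length trend removed) and IDI1 at 147, 94.7, 79.9 and 111 (1.10). The response in the knockdown was 0.47 to 1.45 over these 4 genes, and in the control -0.63 to 0.14. At 1.5-fold the counts were 9 and 1 (13.0% and 12.1% of all genes), and the median difference was 0.33.

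The glucose metabolism list differed the other way, with 3 of 26 genes 2-fold lower (2.83% of all genes) and 0 higher (3.22%). Its median response was negative in both genotypes, -0.32 in the control and -0.41 in the knockdown. At 1.5-fold the counts were 7 lower (12.1% of all genes) and 0 higher (13.0%). The median difference was -0.24, and 9 of the 26 lay above 0. PFKFB4, which makes the activator of phosphofructokinase, was at 11.9 and 22.0 in the control and 20.2 and 15.5 in the knockdown (-1.23). SLC2A1, the main glucose transporter of red cells, was at 87.4, 163, 85.6 and 73.3 (-1.12). Untreated levels of SLC2A1 were alike, and hemin separated them. NDRG1, a hypoxia-responsive gene counted on this list though not a step of glucose metabolism, differed by -1.05 (-0.89 with a pseudocount of 2).

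Genes of the early response and of MYC were mixed. Of 26 at the floor 3 were 2-fold lower (2.83% of all genes) and 0 higher (3.22%), with a median of -0.03. MYC, the growth-promoting transcription factor, was at 456 and 878 scaled TPM in the control and 583 and 506 in the knockdown (-1.15), on 16285 to 38056 reads. ID3, an inhibitor of helix-loop-helix factors, was at 0.828 and 1.41 in the control and 21.4 and 5.54 in the knockdown (-2.38), so its difference came from a high untreated level. ZFP36, which destabilises AU-rich messengers, differed by -1.03 (-0.89 with the length trend removed). JUN was higher with hemin in both (1.59 and 1.88).

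For 29 genes of the amino acid and unfolded protein response the median difference was 0.26. Past 2-fold, 2 were higher (3.22% of all genes) and 1 lower (2.83%). ASNS, asparagine synthetase, was at 57.2 and 37.0 in the control and 5.43 and 10.1 in the knockdown (1.46), and PSAT1, of serine synthesis, at 403, 167, 63.5 and 58.2 (1.15). DDIT3, which encodes CHOP, was at -1.23, but at 0.06 when its transcripts were summed. Of 27 adhesion and surface receptor genes 4 were 2-fold higher (3.22% of all genes) and 1 lower (2.83%). TGFBR1, a TGF-beta receptor chain, was at 59.3, 33.2, 30.3 and 56.2 (1.71), ITGA6, the laminin receptor chain, at 4.70, 1.42, 6.78 and 7.75 (1.62), PECAM1, an adhesion protein of platelets and endothelium, at 78.9, 40.4, 88.9 and 109 (1.25), and EPHA1, an ephrin receptor, at 13.4, 0.929, 11.9 and 2.56 (1.26, and 0.79 with a pseudocount of 2).

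Haem and iron genes had few differences of this size. None of 9 haem synthesis enzymes and none of 5 haem transporters at the floor was past 2-fold. ALAS1, the first enzyme of haem synthesis in most tissues, came nearest, at 373 and 109 in the control and 126 and 69.3 in the knockdown (0.92). Among 14 iron genes 1 was 2-fold lower (2.83% of all genes) and 0 higher (3.22%). It was SLC25A37, mitoferrin, which carries iron into mitochondria for haem synthesis. This gene was at 272 and 718 in the control and 272 and 321 in the knockdown (-1.16, interval -1.22 to -1.10). Its untreated levels were equal, and the hemin response of 1.40 in the control was 0.24 in the knockdown. In the red cell membrane list, of 27, 1 was 2-fold higher (3.22% of all genes) and 2 lower (2.83%). ADD2, a beta-adducin gene of the skeleton, was at 4.74, 9.09, 3.42 and 1.60 (-1.77), while SLC2A1, given above, is also on this list. XK, a blood group protein gene, had a difference of 1.00 that was under 2-fold in 5 of 11 alternatives.

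The series title names mitophagy and microRNAs. Of 23 mitophagy genes 1 was 2-fold lower, near the share of all genes (2.83%), and 0 were higher (3.22%). USP30, a deubiquitinase that restrains mitophagy, was that gene. It was at 4.71 and 12.3 in the control and 4.64 and 5.12 in the knockdown (-1.17, just under 2-fold with a pseudocount of 2). BNIP3L, the receptor through which maturing red cells clear mitochondria, had responses of 0.62 and 0.56, with values deposited as whole numbers of unknown unit. Of 31 autophagosome genes 1 was 2-fold lower, again near the share of all genes (2.83%), and 0 were higher (3.22%). That gene was GABARAPL1, an ATG8 family member, at 33.9 and 169 in the control and 27.3 and 59.2 in the knockdown (-1.20). Among 30 lysosome genes 2 were 2-fold lower (2.83% of all genes) and 0 higher (3.22%), the cathepsin genes CTSF (-1.09) and CTSL1 (-1.09). CTSF was at -0.91 with a pseudocount of 2 and CTSL1 at -0.98 with the length trend removed. MIR17HG, the host transcript of the miR-17-92 cluster, was at 6.22 and 8.59 in the control and 1.38 and 8.16 in the knockdown (1.77); it was low in the untreated knockdown library, on 15 reads, and alike in the other 3.

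Large housekeeping lists had few members past 2-fold (3.22% of all genes higher and 2.83% lower) and medians close to the 0.01 of all genes. Of 76 respiratory chain genes 0 were past 2-fold, with a median difference of 0.00. Of 86 cytosolic ribosomal protein genes 1 was higher and 1 lower, with 0.08. Of the cytosolic set RPS29, a small subunit protein, was at 3480, 2675, 1242 and 2109 (1.14) and RPL39L, a tissue-restricted copy of RPL39, at 4.35, 7.02, 7.30 and 4.60 (-1.25). The 75 mitochondrial ribosomal protein genes had 1 higher and 2 lower, with -0.12, or -0.02 with the length trend removed. At 1.5-fold 4 of the 75 were higher (13.0% of all genes) and 12 lower (12.1%), and 49 lay below 0. No member at the floor was past 2-fold in the lists of KAP1 silencing partners (29 genes), TRIM family (37), tRNA synthetases (20), p53 targets (19), TRiC chaperonin (8), imprinted genes (12) and TXNIP and arrestin genes (10). The 32 interferon response genes did not lie as near, with a median difference of 0.23, 21 above 0 and 11 below. In control cells 5 were at least 1.5-fold higher with hemin (9.15% of all genes), in knockdown cells 13 (12.1%). At 1.5-fold 5 had a higher and 5 a lower difference (13.0% and 12.1% of all genes). IFI44, past 2-fold, went against the median of the list (-1.11, and -0.98 with the length trend removed).

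The 342 ZNF genes at the floor, among which are many KRAB proteins that act through KAP1, had a median difference of 0.17, or 0.12 with the length trend removed. At 2-fold 11 were higher and 8 lower, shares near the 3.22% and 2.83% of all genes, and at 1.5-fold 68 and 31 (13.0% and 12.1% of all genes). They were at least 1.5-fold higher with hemin in 22 cases in the control (9.15% of all genes) and 77 in the knockdown (12.1%). The most positive was ZNF429 (4.86 and 4.42 scaled TPM in the control, 2.34 and 7.07 in the knockdown; 1.54) and the most negative ZNF503 (2.88, 4.82, 5.43 and 2.22; -1.78). The list's median of knockdown over control was -0.30 untreated and -0.15 with hemin. The summed level was 7651 and 7407 scaled TPM in the control and 6903 and 6766 in the knockdown, so both knockdown libraries were below both control libraries.

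**Figure D4:**
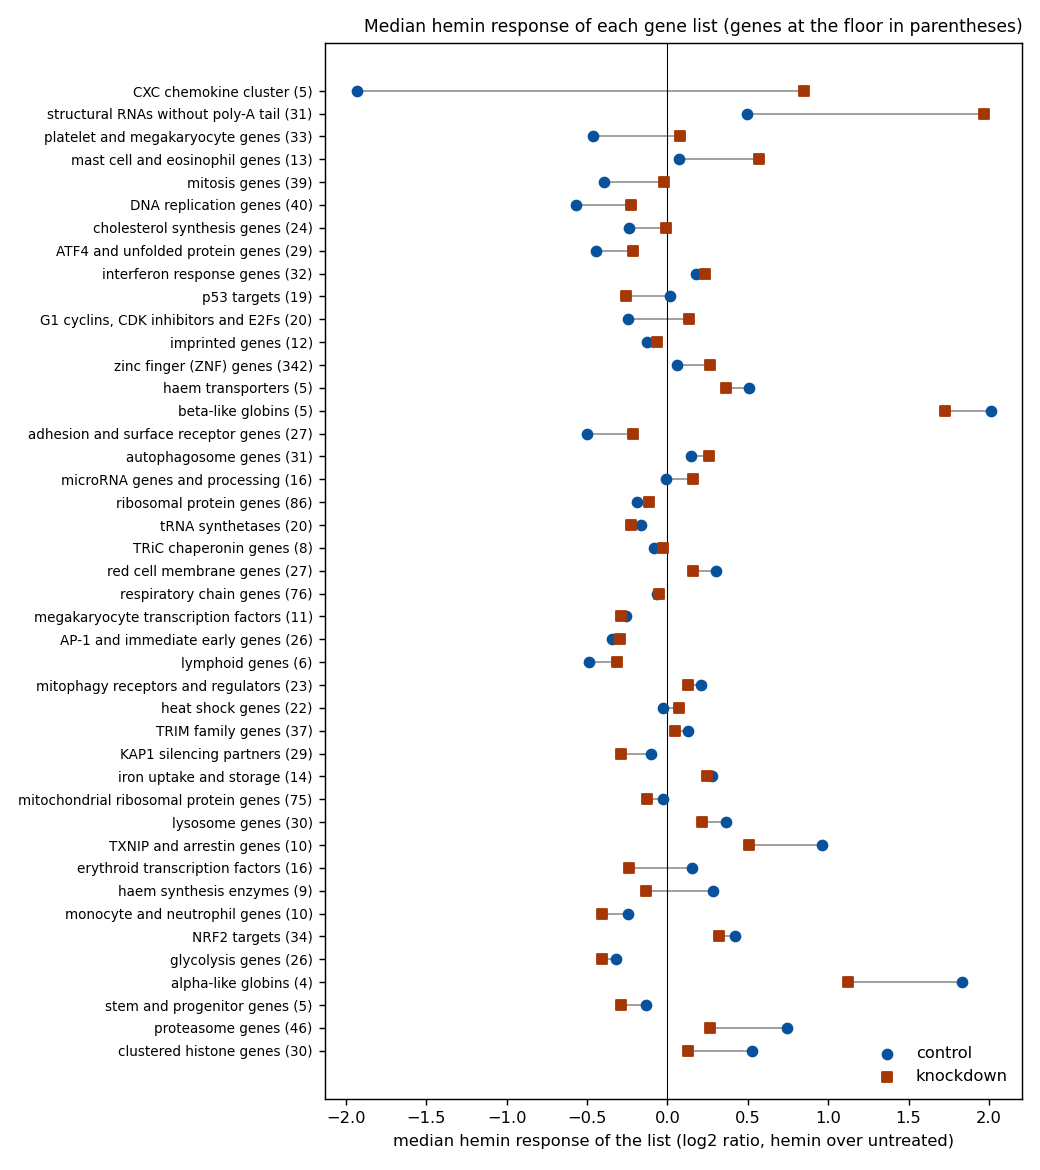
Median hemin response of each gene list in the control (blue circles) and in the knockdown (dark red squares), as the log2 ratio of hemin over untreated, with the number of genes at the floor in parentheses and lists ordered by their median difference. The CXC chemokine cluster and the structural RNAs stand at the top and proteasome and histone genes at the bottom; the respiratory chain genes show no gap between the symbols.

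The single genes with the largest differences belong to no list above in most cases. Of genes higher with hemin in the control and not in the knockdown, HOXD1, a homeobox gene, was at 0.945 and 13.3 scaled TPM in the control and 8.04 and 12.1 in the knockdown (-2.70). Here the treated levels were alike and the untreated control was low. B4GALNT1, a ganglioside synthesis enzyme, was at 4.37, 27.3, 7.16 and 9.20 (-2.17), SHISA4 at 3.92, 14.5, 6.56 and 5.30 (-2.05), and SHF, an adaptor protein gene, at 2.24, 6.04, 3.04 and 1.57 (-2.03). DES, the muscle filament desmin, was at 2.35, 6.75, 1.01 and 0.126 (-2.62, on 6 to 279 reads).

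Among genes lower with hemin in the control and not in the knockdown, GNLY, a cytolytic granule protein of lymphocytes, was at 21.6 and 0.877 in the control and 1.47 and 1.27 in the knockdown (3.85). It was high in the untreated control and low in the other 3 libraries, and so was FCGR1B, a close copy of another Fc receptor gene (5.83, 1.69, 0.150 and 0.836; 2.57, with 2 reads in the untreated knockdown). CHRM3-AS2, an antisense RNA whose reads cannot be told apart from those of its partner without strand, was at 45.3, 9.16, 2.61 and 4.51 (2.94) and INSL3, an insulin-like hormone, at 5.34, 0.407, 1.58 and 1.88 (2.88). MPZL3, an adhesion protein gene, was at 8.67, 3.74, 2.25 and 7.65 (2.68), and C8orf22 at 5.55, 1.52, 1.14 and 3.76 (2.96), both with the same crossover as PPBP. TMEM212, at 5.04, 4.39, 1.03 and 4.93 (2.01), was higher with hemin in the knockdown alone, and low in its untreated library alone.

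Of the genes lower with hemin in the knockdown and not in the control, the next 4 were highest in the untreated knockdown library. SHISA3, a WNT and FGF signalling antagonist, was at 0.223 and 0.0279 in the control and 14.1 and 0.483 in the knockdown (-3.44); with 1 read in the treated control its counting interval ran from -4.94 to 3.70 and did not exclude equal responses. HNRNPCL1, a copy of a nuclear ribonucleoprotein gene, was at 3.51, 4.01, 15.9 and 3.44 (-2.23), the pseudogene RPL13AP6 at 7.01, 5.97, 19.2 and 2.62 (-2.44), and TMEM238 at 0.705, 1.70, 5.99 and 1.81 (-2.36). Reads of HNRNPCL1 and RPL13AP6 may come in part from the near-identical genes they were copied from.

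Structural RNAs and histone genes are given apart, because the library kit selects poly-A RNA and what remains of these RNAs depends on that step. Of 31 structural RNAs at the floor, 19 had a 2-fold higher difference and 0 a lower one (3.22% and 2.83% of genes outside these lists). The counting interval excluded equal responses in 16 of the 31. The median response was 0.49 in the control and 1.97 in the knockdown, and the median difference 1.11. Their summed level was 6564 and 10883 scaled TPM in the control and 5017 and 17285 in the knockdown, so the untreated knockdown was lowest and the treated knockdown highest. They took 0.927% and 1.68% of the reads in the control and 0.798% and 1.93% in the knockdown, most of it ribosomal RNA.

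RN5-8S1, the 5.8S ribosomal RNA, was at 453 and 512 scaled TPM in the control and 80.8 and 3477 in the knockdown (5.24, interval 4.99 to 5.52). RNU2-2, a U2 spliceosomal RNA, was at 3.67 and 7.30 in the control and 0.453 and 114 in the knockdown (6.98 without the pseudocount, interval 4.05 to 12.3), with 1 read in the untreated knockdown. SNORD3C, a copy of the U3 nucleolar RNA, was at 4.62, 12.1, 2.75 and 93.2 (3.55), and the 3 other U3 copies, which may share its reads, differed by 2.55 to 2.73. BCYRN1, the BC200 RNA, was at 49.8, 44.2, 19.2 and 105 (2.60) and SNORA73B, a small nucleolar RNA, at 21.8, 9.73, 7.55 and 31.0 (3.10). The knockdown with hemin was the highest library for each of these. RMRP, the RNA of RNase MRP, was at 7.70, 7.93, 2.46 and 28.0 (3.23), and RN7SK, which holds the elongation factor P-TEFb inactive, at 22.9, 39.2, 28.0 and 136 (responses of 0.77 and 2.26). Not every one followed: the 28S ribosomal RNA RN28S1 was at 2981 and 5546 in the control and 2447 and 5109 in the knockdown (0.17). The part of this difference in other gene lists was not tested; scaling computed without these RNAs and histone genes gave 355 genes 2-fold higher and 314 lower, against 357 and 314.

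**Figure D5:**
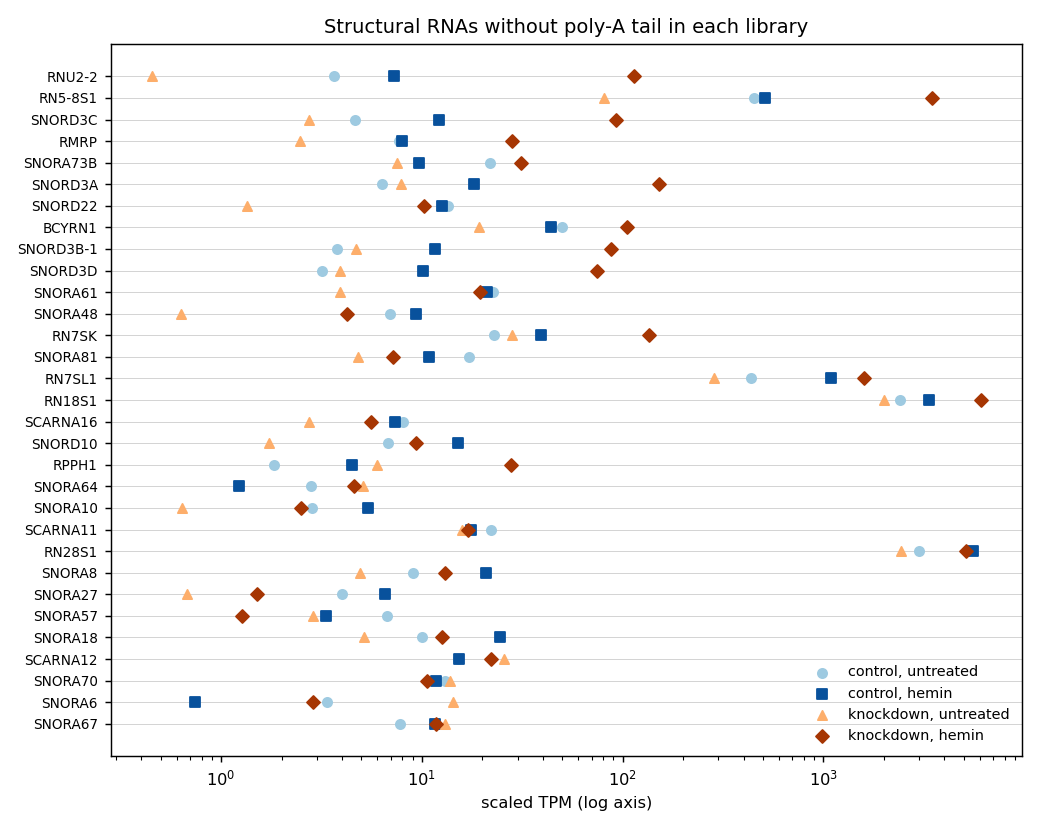
Level of 31 structural RNAs without a poly-A tail in each library, as scaled TPM on a log axis, ordered by the difference in hemin response. For the RNAs at the top the knockdown library with hemin (dark diamonds) is far to the right and the untreated knockdown (triangles) to the left, as for RNU2-2 at 114 and 0.453.

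Of 30 clustered histone genes, 7 had a 2-fold lower difference and 0 a higher (2.83% and 3.22% of genes outside these lists), with a median of -0.58. Over the alternatives this median ran from -0.62 with a pseudocount of 0.1 to -0.36 with a floor of 20. The counting interval excluded equal responses in 17 of the 30. In control cells 14 of these genes stood at least 1.5-fold higher with hemin (9.15% of genes outside these lists). In knockdown cells 4 did (12.1%). Their summed level was 410 and 583 scaled TPM in the control and 1274 and 1504 in the knockdown, so both knockdown libraries were above both control libraries. HIST1H4H was at 4.36 and 15.7 in the control and 25.7 and 31.0 in the knockdown (-1.47), on 26 to 244 reads, and HIST1H3H at 2.65, 7.43, 20.0 and 21.2 (-1.25, and -0.94 with a pseudocount of 2). The median difference of the histone genes thus had the opposite sign from that of the structural RNAs.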

How the data were processed

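RNA was measured in the 4 HEL libraries of the series. Per the file headers, the authors gave expression as RPKM for each RefSeq transcript; Bowtie and hg19 appear without role or version in the submitters' processing notes. The planned design had assumed RPKM scaled to depth, and this was not relied on. Each deposited value was a whole number of reads over transcript length times 1 factor per library. These factors were divided out before scaling. Reads were recovered for 24403 of 24403 transcripts (tolerance 0.0002 reads). The 5 rows of whole numbers, among them TRIM28, BNIP3L, BECN1 and ATG12, have no reads; their values, of unknown unit, were scaled like the others. Levels were scaled by a trimmed mean of log ratios (trims 0.3 and 0.05), with the transcript of highest mean level standing for a gene.

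Log2 values were taken on scaled TPM plus 0.5, which understates the change of low genes. A gene entered when its highest library reached 5 scaled TPM. Intervals are exact conditional 95% intervals on reads without the pseudocount, so for low genes a difference can lie outside its interval. Such intervals hold counting error alone, and PCR copies of a molecule, which no identifier marked, count as separate reads. With 1 library per group no test across genes was possible, and fixed sizes of 2-fold and 1.5-fold were used for counting.

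Genes named by rule were HBZ, PPBP, PF4, PIR, TRIM28, HMOX1, up to 6 per class of lost or gained response and up to 4 per list; other list members were named after their values were seen. Members and the 43 gene lists were chosen with earlier results of these data known. The structural RNA list was widened by 6 genes after values were seen: as first written it had 25 genes at the floor, a median difference of 1.03 and 14 past 2-fold higher. Alternatives were other scalings, floors, pseudocounts, fold limits and choices of transcript, and, chosen after seeing the data, removal of the length trend. Calculations used Python 3.11.15, numpy 2.4.6, pandas 2.3.3 and scipy 1.17.1, and were tested on simulated data. Motifs were searched in the 250 bases before gene starts in a RefSeq table of GRCh38.p14. The mouse chromatin samples were not used here.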

Additional observations from a re-analysis of the deposited data

Results flagged for a closer look

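In 11 of the genes that are always named or lead a class of lost or gained responses, the hemin library was at least 1.5-fold away from the untreated one in opposite directions in the 2 genotypes. The difference itself was not tested, because each group was 1 library. Higher with hemin in the control and lower in the knockdown were HBZ, with a difference between the responses of -3.0236 on the log2 scale, DES with -2.6222, SHF with -2.0314 and TMEM238 with -2.3590. Lower with hemin in the control and higher in the knockdown were PPBP with 3.3520, PF4 with 2.8192, C8orf22 with 2.9574, CHRM3-AS2 with 2.9361, MPZL3 with 2.6786, FCGR1B with 2.5742 and RGS18 with 1.9529. Among genes named for their lists, HBB, PRG2, ASNS, TGFBR1, ADD2, RPL39L and ZNF503 also had opposite responses of this size. All 11 are also described with their 4 levels above; TMEM238 (8 to 50 reads), FCGR1B (2 to 106) and DES (6 to 279) had the lowest reads in a single library.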

How the results depend on the processing

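No paired analysis was possible because each group was 1 library, and for the same reason no replicate could be left out. The 357 genes 2-fold higher and 314 lower became 182 and 172 with a floor of 20 scaled TPM, 551 and 536 with no floor, and 1444 and 1341 at 1.5-fold or 16 and 14 at 4-fold; a pseudocount of 2 left 231 higher and 215 lower. The cause of these shifts is by construction the number of genes counted or the damping of low genes. The other scalings gave 341 to 371 higher and 301 to 330 lower. Of 89 named genes past 2-fold, 71 stayed past it under each of 11 alternatives; 13 did not with a pseudocount of 2 and 6 with the length trend removed. Among medians of gene lists, 445 values stayed within 0.1 of the reported one, 22 moved further, and 7 turned a median that lay at least 0.1 from 0; some medians nearer to 0 changed sign as well. The 7 are as follows, each set against the median under the main settings. Haem transporters went from 0.1242 to -0.0333 with summed transcripts, -0.2069 with a floor of 20 and -0.0416 without the length trend. Monocyte and neutrophil genes went from -0.2267 to 0.0377 with summed transcripts and 0.1786 with no floor. TXNIP and arrestin genes went from -0.1733 to 0.0248 with a floor of 20, and imprinted genes from 0.1762 to -0.2993 with no floor. DDIT3 was at 0.0649 with summed transcripts. The cause of these changes of sign was not tested. Over all alternatives the median difference was 0.66 to 0.79 for platelet genes, -0.46 to -0.36 for proteasome genes and 1.02 to 2.27 for structural RNAs, the last value with a floor of 20. Depth limits low genes most: the median width of the counting interval was 0.73 below a mean of 10 scaled TPM and 0.19 at 50 or more.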
